A study of Mus musculus with 2 samples.

Results

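Costimulatory receptors and ligands of the CD28 and TNF receptor families were followed in RNA sequencing of in vitro differentiated Th1 cells. The 10 genes were picked by symbol as a family, not by their values, and all 10 were found among the 24421 gene symbols of the deposited tables. They are Cd28, Icos and Cd226 of the immunoglobulin superfamily, the TNF receptors Cd27, Tnfrsf4, Tnfrsf9, Tnfrsf18 and Tnfrsf1b, and the TNF family ligands Cd40lg and Tnfsf14. The files hold 1 library of WT Th1 cells (C57BL/6J, Chi3l1+/+) and 1 library of Chi3l1 KO Th1 cells (C57BL/6J, Chi3l1-/-), so n = 1 for each genotype and no test between them is possible. In both cases naïve CD4 T cells of young adult mice, isolated as CD4+ CD25- CD62L+ cells, were activated on plates coated with antibodies to CD3 and CD28, in the presence of IL-12, IL-2 and an antibody that neutralizes IL-4, for a time that is not stated for the sequenced cells. The KO allele (chitinase 3-like 1) is not restricted to T cells, and how many mice went into a library was not given in the sources used here, nor whether the libraries came from separate cultures. The question was whether the costimulatory genes of Th1 cells differ between the genotypes.

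A T cell that meets its antigen needs a second signal to divide, survive and make cytokines, and this signal comes from costimulatory receptors. CD28 is on resting T cells, binds CD80 and CD86 and recruits PI3 kinase, whereas ICOS, OX40 (Tnfrsf4), 4-1BB (Tnfrsf9) and CD40 ligand appear after activation. The TNF receptors of the family have no enzyme of their own. They gather TRAF adaptors at the membrane and through them activate NF-κB, and they sustain survival of the activated cell. Because CD28 was engaged by an antibody in both cultures, the cells had received the first of these signals in the dish.

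Over the listed genes, reads rebuilt as described under processing summed to 70.5 M (labelled WT) and 62.9 M (labelled KO). The worth of 1 read was taken from the low values, and these sums are not the numbers of reads sequenced. The targeted gene went against its label. Chi3l1, listed as Chil1, had 1 read in the library labelled WT and 103 reads in the library labelled KO (log2 values of 0.94 and 6.66). The tables give 1 value per gene, and which exons these reads came from was not seen. For this reason the samples are called the library labelled WT and the library labelled KO, and every direction below rests on those labels. The T cell genes Cd3e, Cd3d, Cd3g, Cd4, Cd5, Thy1 and Lck had log2 values from 11.9 to 16.5 in both libraries, and each of these 7 was lower in the library labelled KO, with log2 differences from -0.525 (Cd5) to -0.002 (Lck). That direction did not hold for Cd3e, Cd3d and Lck, which were above 0 with quantile, Actb and equal-total scaling. Actb, the β-actin gene used below as a scaling alternative, had 18.99 and 18.87. Of the 7 Th1 genes, 5 were higher and 2 lower in the library labelled KO, with a median difference of 0.165. Ifng was 11.72 and 13.04, Cxcr3 was 8.05 and 6.82, and Tbx21, the gene of T-bet, was 13.98 and 13.71 (above 0, at 0.079, once the GC trend described below was removed). Il12rb2, Stat4, Il18rap and Hlx were higher by 0.070 to 0.445 on the log2 scale. In bulk RNA, fewer cells of a type and less RNA per cell cannot be told apart.

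Within each library, the receptors spread over a wide range of levels. Levels of different genes are compared as normalized count per 1000 bases of the longest transcript. Tnfrsf4, which encodes OX40, led the family with 39832 in the library labelled WT and 29792 in the library labelled KO. That placed Tnfrsf4 within the top 0.797% and 0.958% of the 14927 genes with a length whose log2 value reached 1 in either library. Cd27 (18851 and 16697), Tnfrsf18 (14912 and 14364) and Tnfrsf9 (13357 and 18020) followed at levels within the top 2.34% of genes. A second tier held Icos (2648 and 2789), Cd28 (2440 and 2398), Cd40lg (1702 and 2105) and Tnfrsf1b (1691 and 1521). Cd226, an adhesion and costimulatory receptor best known from NK cells, and Tnfsf14, which encodes LIGHT, were far below, at 80.1 and 68.8 in the library labelled WT and at 75.6 and 58.2 in the library labelled KO. The 4 leading TNF receptors thus stood above both Cd28 and Icos in each library.

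**Figure D1:**
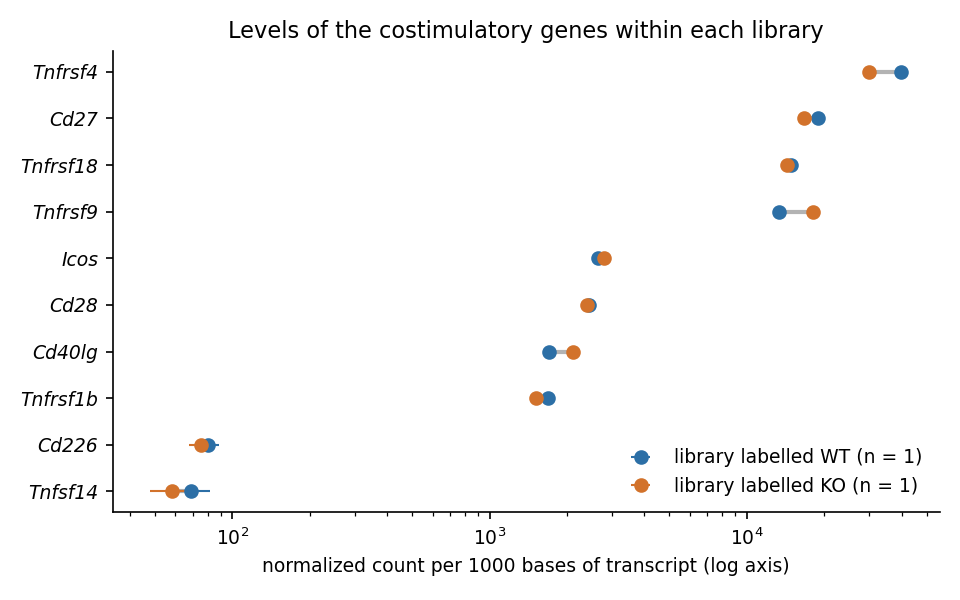
Normalized count per 1000 bases of the longest transcript (log axis) of the 10 costimulatory genes in the library labelled WT (blue) and the library labelled KO (orange), 1 library each, with thin bars for the 95% exact Poisson interval of the reads. Tnfrsf4 is highest in both, and Tnfrsf9 is below Cd27 and Tnfrsf18 in the library labelled WT and above both in the library labelled KO.

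Neighbours in this order were close in places. In the library labelled WT, the 95% exact Poisson interval of Cd40lg ran from 1632 to 1775 and that of Tnfrsf1b from 1651 to 1733, so counting error alone covers their difference. Cd226 (72.2 to 88.7) and Tnfsf14 (57.5 to 81.7) overlapped as well. These intervals hold counting error alone, and the spread between cultures is unknown. The order also depended on the length used. Per 1000 bases of coding sequence, Tnfrsf9 exceeded Tnfrsf4 in the library labelled KO (49625 against 39795), and Cd28, whose longest transcript of 4347 bases has a long untranslated part, stood above Icos (16220 against 12826 in the library labelled WT).

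None of the 10 genes differed 2-fold between the libraries, and none differed 1.5-fold on the deposited scale. Among the 15541 genes whose log2 value reached 1 in either library, 16.5% differed at least 2-fold in either direction (7.37% higher and 9.12% lower in the library labelled KO). This share depends on level. Among the 8886 genes whose log2 values were 8 or more in each library, called well expressed below, 1.2% differed 2-fold and 10.2% differed 1.5-fold. The 2-fold line thus separates few genes at the levels of this family, and 0 of 10 is close to that background. On the deposited log2 scale, the library labelled KO minus the library labelled WT, the 10 differences ran from -0.419 (Tnfrsf4) to 0.432 (Tnfrsf9) with a median of -0.068, and 3 were above and 7 below 0. This tally depended on the scaling, with 6 above and 4 below after quantile normalization or Actb scaling and 7 above and 3 below with equal totals. Well expressed genes had a median of -0.011 and quartiles of -0.255 and 0.216, so Tnfrsf9, Cd40lg and Tnfrsf4 fell outside those quartiles and the other 7 inside. The summed share of all normalized counts was 0.215% for the family in the library labelled WT and 0.233% in the library labelled KO.

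**Figure D2:**
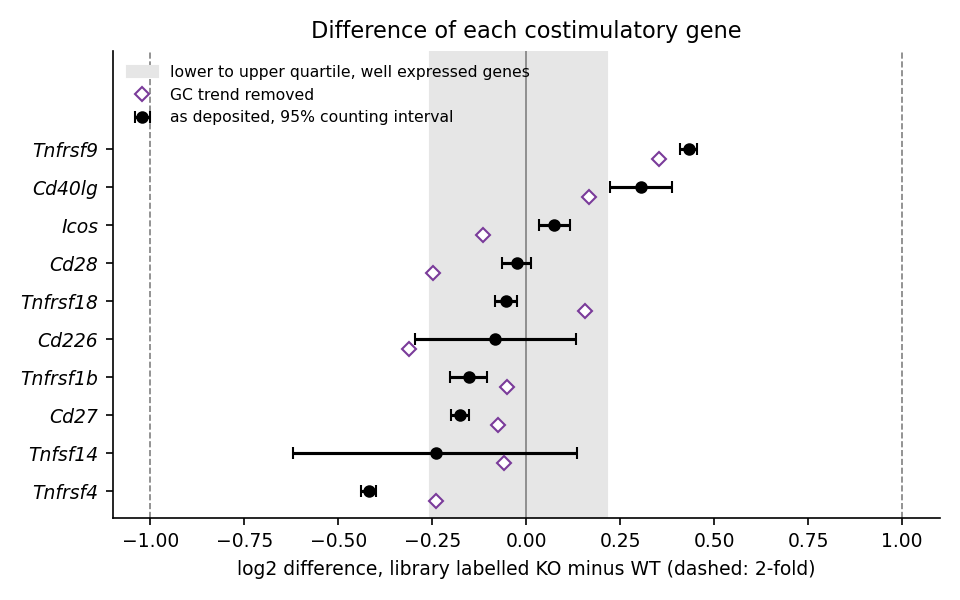
Log2 difference of each gene (library labelled KO minus library labelled WT, n = 1 each), as deposited with the 95% Clopper-Pearson interval for counting error (black) and after the trend with GC content was removed (purple diamonds). The grey band spans the quartiles of well expressed genes, and Tnfrsf9, Cd40lg and Tnfrsf4 are the genes outside it as deposited.

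**Figure D3:**
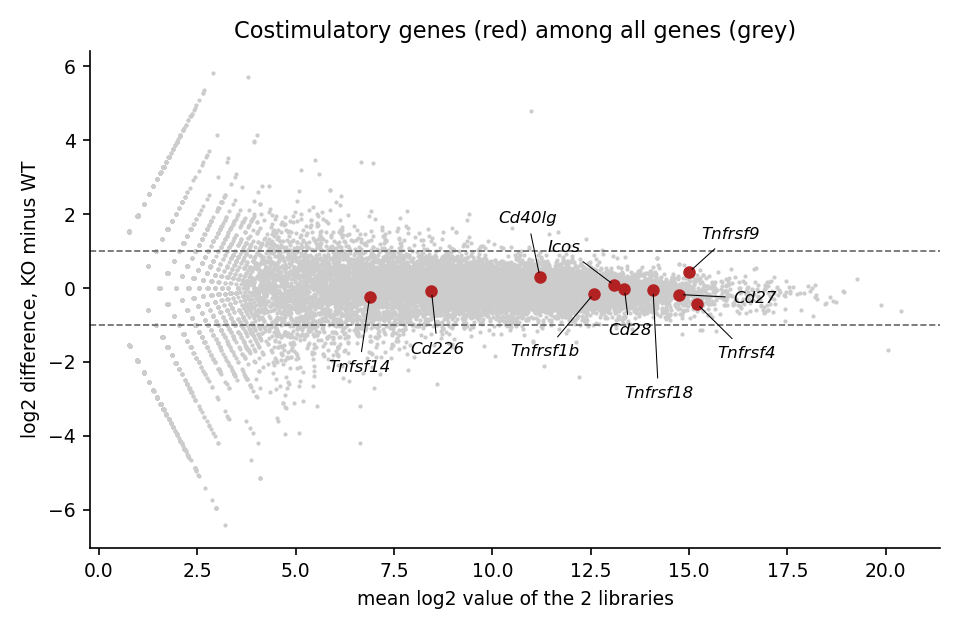
Log2 difference (vertical) against the mean log2 value of both libraries (horizontal) for genes whose log2 value reached 1 in either library (grey) and the 10 costimulatory genes (red). Dashed lines mark 2-fold, and the red points lie between them where the grey cloud is narrow.

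The largest differences were in opposite directions and in a pair of closely related receptors. Tnfrsf4 (chromosome 4, 156013843 to 156016612, plus strand, GRCm38) encodes OX40, which prolongs the response of activated CD4 T cells. Its log2 value was 15.41 in the library labelled WT and 14.99 in the library labelled KO, from 44750 and 33526 reads. The level was thus 1.34-fold lower in the library labelled KO, a log2 difference of -0.419 with a 95% Clopper-Pearson interval from -0.439 to -0.399 for counting error. Tnfrsf9 (chromosome 4, 150914562 to 150946102, plus strand) encodes 4-1BB, a receptor induced by activation in CD8 and CD4 T cells. It was 14.79 in the library labelled WT and 15.22 in the library labelled KO, from 29117 and 39348 reads, which is 1.35-fold higher (log2 difference 0.432, interval 0.410 to 0.454). A difference at least as large in either direction was seen in 23.3% of well expressed genes for Tnfrsf4 and in 22.1% for Tnfrsf9. Neither gene alone therefore stood out from the spread over genes. The sign of both held under each of the 7 alternative scalings and corrections, with Tnfrsf4 between -0.419 and -0.239 and Tnfrsf9 between 0.354 and 0.623.

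The ratio of these receptors within a library does not depend on a factor applied to the whole library. Per 1000 bases of transcript, Tnfrsf4 was 2.98 times Tnfrsf9 in the library labelled WT and 1.65 times in the library labelled KO, a shift of 1.80-fold. After removal of the trend with GC content, the shift was 1.51-fold. As deposited, these genes had the lowest and the highest difference of the family, so a large shift follows from the choice of this pair. It restates their differences, and the share of other gene pairs with as large a shift is not given here. Cd27 and Tnfrsf18 were also above Tnfrsf9 in the library labelled WT (1.41 and 1.12 times) and below it in the library labelled KO (0.927 and 0.797 times). Per coding length Tnfrsf4 was 1.45 times Tnfrsf9 in the library labelled WT and 0.802 times in the library labelled KO. By the same measure Cd27 was 1.065 and 0.699 times Tnfrsf9, and Tnfrsf18 was below Tnfrsf9 in both libraries (0.512 and 0.365 times). The exons of Tnfrsf9 share no base with Camta1, the gene that overlaps it on the opposite strand and that had log2 values of 6.37 and 6.85.

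The 250 bases before the annotated starts of Tnfrsf4 and Tnfrsf9 are shown (RefSeq, GRCm38.p6, plus strand, 5′ to 3′). Capitals mark matches to the AP-1 site TGANTCA and to the NF-κB consensus, searched on both strands. RefSeq gives Tnfrsf9 an upstream and a downstream start, with windows at chr4:150919905-150920154 and chr4:150927749-150927998. Tnfrsf4 has a single start, with a window at chr4:156013445-156013694. The GENCODE gene starts differ from these. That of Tnfrsf9 (150914562) lies before the upstream window, and the bases before it were not searched. That of Tnfrsf4 (156013843) lies after its window.
Tnfrsf4: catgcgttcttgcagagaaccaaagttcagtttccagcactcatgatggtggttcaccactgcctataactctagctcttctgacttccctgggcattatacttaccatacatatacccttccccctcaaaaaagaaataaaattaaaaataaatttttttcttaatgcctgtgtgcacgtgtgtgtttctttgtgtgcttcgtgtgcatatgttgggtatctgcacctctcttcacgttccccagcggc
Tnfrsf9 upstream start: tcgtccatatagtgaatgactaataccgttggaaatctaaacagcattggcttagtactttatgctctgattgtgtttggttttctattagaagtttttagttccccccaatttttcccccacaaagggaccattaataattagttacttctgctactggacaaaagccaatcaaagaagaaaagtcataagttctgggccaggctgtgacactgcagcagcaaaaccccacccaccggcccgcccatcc
Tnfrsf9 downstream start: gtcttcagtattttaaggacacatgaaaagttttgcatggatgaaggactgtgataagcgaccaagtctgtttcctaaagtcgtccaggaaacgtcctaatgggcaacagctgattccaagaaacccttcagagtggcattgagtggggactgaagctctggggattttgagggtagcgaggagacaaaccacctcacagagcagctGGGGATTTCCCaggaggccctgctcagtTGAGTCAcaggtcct
The downstream window of Tnfrsf9 held 1 AP-1 match and 2 NF-κB matches that overlap each other, and GENCODE places the start of another Tnfrsf9 transcript inside it. The letters of these motifs were not found in the window of Tnfrsf4 or in the upstream window of Tnfrsf9. Of all 32851 promoter windows of this length, 6.75% held the AP-1 letters and 7.25% the NF-κB letters. The tables do not tell which start the reads came from. More sequence was searched for Tnfrsf9 than for Tnfrsf4, and whether the motifs bear on the differences was not tested. Windows are reported for 6 of the 10 genes. Besides Tnfrsf4 and Tnfrsf9, AP-1 letters occurred in that of Tnfsf14 and neither motif in those of Cd27, Tnfrsf18 and Tnfrsf1b. No window of Cd28, Icos, Cd40lg or Cd226 is reported here, so this tally does not cover them.

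The other TNF receptors differed less. Tnfrsf18, which encodes GITR, lies 9551 bases from Tnfrsf4 on chromosome 4 (156026164 to 156028895). Its log2 value was 14.11 in the library labelled WT and 14.06 in the library labelled KO, a difference of -0.054 whose sign changed under 4 of the 7 alternatives. The neighbouring genes of OX40 and GITR therefore did not share one difference. An antisense gene, Gm16008, covers 414 exon bases of Tnfrsf18, and whether the counting used the strand was not given in the sources used here. Cd27, a receptor already present on naïve T cells whose ligand is CD70, lies on chromosome 6 (125232622 to 125237010, minus strand). It went from 14.84 in the library labelled WT to 14.67 in the library labelled KO, a difference of -0.175 (interval -0.199 to -0.151) that came to 0.008 after quantile normalization and was below 0 otherwise. A miRNA gene, Mir8113, lies within an exon of Cd27. Tnfrsf1b, the TNF receptor type 2 that supports survival of effector and regulatory T cells, had 12.66 and 12.50 (chromosome 4, 145213463 to 145246870, minus strand), a difference of -0.153, with 0.015 when the libraries were scaled to equal totals.

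Cd28 and Icos form a gene cluster with the inhibitory receptor gene Ctla4 on chromosome 1. Cd28 (60716800 to 60773359) was nearly equal, at 13.37 in the library labelled WT and 13.35 in the library labelled KO (10934 and 10764 reads). Its difference of -0.025 had a counting interval from -0.064 to 0.014, and 94.5% of well expressed genes differed at least as much. Icos (60977927 to 61000320) had 13.07 and 13.14, a difference of 0.075 (interval 0.033 to 0.117) that came to -0.116 once the trend with GC content was taken out. Between them, Ctla4, whose product competes with CD28 for CD80 and CD86, had 13.99 and 14.15. Per 1000 bases of the longest transcript, Ctla4 was 3.44 times Cd28 in the library labelled WT and 3.93 times in the library labelled KO. The gap was smaller per coding length, where Cd28 was 0.668 and 0.586 times Ctla4. Chi3l1 is on the same chromosome, 73.2 Mb from Icos.

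The ligands and the adhesion receptor of the family gave the following values. Cd40lg (chromosome X, 57212143 to 57224042, plus strand) encodes CD40 ligand, through which helper T cells activate B cells and dendritic cells. Its log2 value was 11.06 in the library labelled WT and 11.36 in the library labelled KO, from 2193 and 2716 reads, which is 1.24-fold higher (difference 0.306, interval 0.224 to 0.388). It was above 0 under each of the 7 alternatives, from 0.167 to 0.474, and 38.3% of well expressed genes differed at least as much. Tnfsf14 (chromosome 17, 57189492 to 57194177, minus strand) was 7.001 and 6.76, from 131 and 111 reads. Its difference of -0.240 was not detectable at this depth, since the counting interval ran from -0.619 to 0.134, and 59.3% of the 1576 genes with log2 values between 6 and 8 in each library differed at least as much. The same holds for Cd226 (chromosome 18, 89176967 to 89272229, plus strand), with 8.50 and 8.41 from 371 and 351 reads, and a difference of -0.082 (interval -0.297 to 0.132).

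The base composition of the transcripts moved with the differences. Across 8580 well expressed genes with a transcript in GENCODE M21, the log2 difference was lower in genes of higher GC content (Spearman rho = -0.525, across genes of the same 2 libraries and without a p). The median difference was 0.229 in the lowest of 20 bins of GC content and -0.454 in the highest. Tnfrsf4 has 54.9% GC and lies in a bin with a median of -0.180, and Tnfrsf9 has 47.8% and a bin median of 0.078. After the bin median was subtracted, Tnfrsf4 had -0.239 and Tnfrsf9 0.354. Both thus kept their direction at a smaller size. Cd226 (35.0% GC) had -0.311 and Cd28 (41.2% GC) -0.249 after subtraction, while Tnfrsf18 (55.7% GC) had 0.156. Over the family the median was -0.068 before and -0.067 after.

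**Figure D4:**
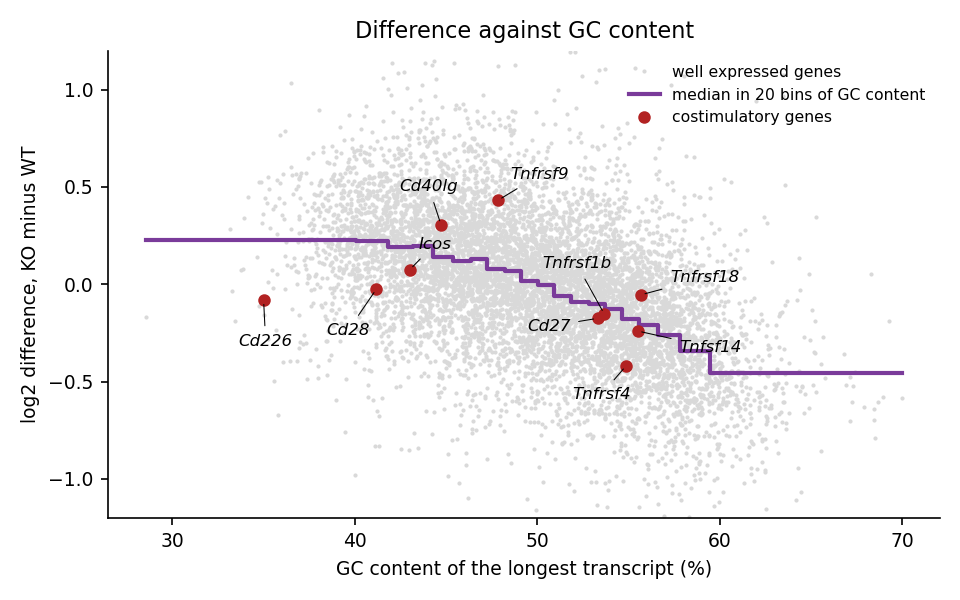
Log2 difference (library labelled KO minus WT) against the GC content of the longest transcript in percent, for well expressed genes (grey) and the costimulatory genes (red), with the median of each of 20 GC bins as a purple line. Tnfrsf9 lies above the line and Tnfrsf4, Cd28 and Cd226 below it, and genes beyond the vertical range are not drawn.

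Markers of other T cells moved alongside. Regulatory T cells also carry OX40, 4-1BB, GITR and TNF receptor type 2, and the 4 genes of their list were higher in the library labelled KO as deposited. Il2ra and Ctla4 of this list are expressed by activated T cells as well, and Ctla4 came to -0.027 after removal of the GC trend. Foxp3, the defining factor, was 10.94 and 11.66 (difference 0.724), and Ikzf2 was 7.35 and 8.26. The summed normalized count of the list in the library labelled KO was 1.19 times that of the library labelled WT. Most of this sum came from Il2ra (59956 and 71222 reads) and Ctla4 (16746 and 18794 reads), beside 2022 and 3347 reads of Foxp3. Tnfrsf9 was higher in the library labelled KO, while Tnfrsf4, Tnfrsf18 and Tnfrsf1b were not as deposited. The isolation step selected against CD25+ cells, which include most regulatory T cells. The part of regulatory T cells in these values was not tested. Of the cytotoxic T cell genes, Cd8a was 8.13 and 8.73 and Cd8b1 was 9.06 and 8.59, which are opposite directions.

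The partners that bind the costimulatory genes were read from lists of 60 pathway genes, 59 of which reached a log2 value of 1 in either library. Of these 59, 4 were at least 2-fold higher and 3 at least 2-fold lower in the library labelled KO (11.9%, beside 16.5% of all genes), and the median difference was -0.044. Of the 7, 6 had a log2 value under 8 in at least one library, below the level where 1.2% of genes passed the line. All 33 signalling genes and 17 of the 26 ligand and receptor genes had log2 values of 8 or more in each library. The lists thus held mostly well expressed genes, and the 16.5% over all genes is not a background at their levels. Of 9 measured ligands of antigen presenting cells, 3 were past 2-fold higher. Tnfsf4, the ligand of OX40, was 5.91 and 7.26 (61 and 157 reads, difference 1.347, interval 0.926 to 1.813). Cd40, the receptor for CD40 ligand, was 8.79 and 9.91 (454 and 996 reads, difference 1.129), and Icosl, the ligand of ICOS, was 5.48 and 6.55 (45 and 96 reads, difference 1.074). These 3 stayed past 2-fold under each alternative. Nectin2, a ligand of CD226, was lower (6.67 and 4.998, 104 and 32 reads, difference -1.673). Cd70 was also past the line at -1.005, on 15 and 7 reads, with an interval from -2.638 to 0.280, and it was within 2-fold with quantile, Actb and equal-total scaling and after removal of the GC trend (-0.744). Tnfsf18, the ligand of GITR, was listed at 0 in both libraries.

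B cell genes moved in the same direction as Cd40, Icosl and Tnfsf4, which B cells and other antigen presenting cells carry. The ligand list as a whole did not, with 4 genes higher and 5 lower as deposited. Cd86, which these cells also carry, was nearly equal (36 and 35 reads, difference -0.042). Cd80, the other listed ligand of CD28, was higher (114 and 167 reads, difference 0.545, interval 0.196 to 0.905). The 5 B cell genes read here (Cd79a, Cd79b, Ms4a1, Pax5 and Ebf1) were higher in the library labelled KO under each alternative, as deposited from 0.266 (Cd79b) to 1.09 (Ebf1), and their summed normalized count was 832 and 1406. Ebf1, a transcription factor of B cell identity, was 7.35 and 8.44. The list of dendritic cells summed to 73.6 and 122, with Flt3 (4.203 and 6.06) and Zbtb46 (3.86 and 5.57) higher and Itgax (5.45 and 2.53) lower. Clec9a and Siglech were at 0 in both libraries, and Xcr1 had 0 reads in the library labelled WT and 5 in the library labelled KO. The list of monocytes and macrophages summed to 537 and 494, with Lyz2 lower (5.08 and 1.53) and Adgre1 at 0 in both libraries. Cd14 had 12 reads in the library labelled WT and 0 in the library labelled KO, and Mrc1 had 0 and 29. The neutrophil list summed to 58.9 and 4.79, with 32 and 5 reads of Mpo, and with Camp at 0 in both. S100a8, S100a9, Elane and Ltf were at 0 in the library labelled KO, against 5, 3, 20 and 1 reads in the library labelled WT. The counting intervals of S100a8, S100a9 and Ltf reached above 0. NK cell genes summed to 111 and 234, with Klrk1 at 6.399 and 7.52 and Klra8, whose family members share sequence, at 3.54 and 5.28 higher. Ncr1 had 0 reads in the library labelled WT and 6 in the library labelled KO, and Klrb1c was lower on 17 and 9 reads. The isolation of naïve CD4 T cells selected against all these cell types before the culture. Their part in the ligand values was not tested.

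Several family members outnumbered a partner in transcripts. Per 1000 bases, Tnfrsf4 was 1240 times Tnfsf4 in the library labelled WT and 361 times in the library labelled KO. For Icos over Icosl the ratios were 171 and 84.5, and for Tnfrsf9 over Tnfsf9 they were 22.7 and 38.0. For Cd40lg, here the ligand, over its receptor gene Cd40 they were 11.5 and 6.52. The sizes depended on the length used, and per coding length Tnfrsf4 was 534 and 155 times Tnfsf4. Some partners were more abundant than the family member. Tnf and Lta, made by Th1 cells themselves, were 3.12 and 5.13 times their receptor Tnfrsf1b in the library labelled WT, and 3.02 and 4.95 times in the library labelled KO. Tnfrsf14, a receptor of LIGHT, was 14.5 and 14.8 times Tnfsf14, and Pvr, a ligand of CD226, was 13.3 and 13.5 times Cd226. These last ratios differed little between the libraries. Those to another listed partner of the same genes did differ, on few reads of the partner. Cd226 was 2.17 and 6.68 times Nectin2 (104 and 32 reads), and Tnfsf14 was 2.82 and 10.6 times Ltbr (53 and 12 reads).

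**Figure D5:**
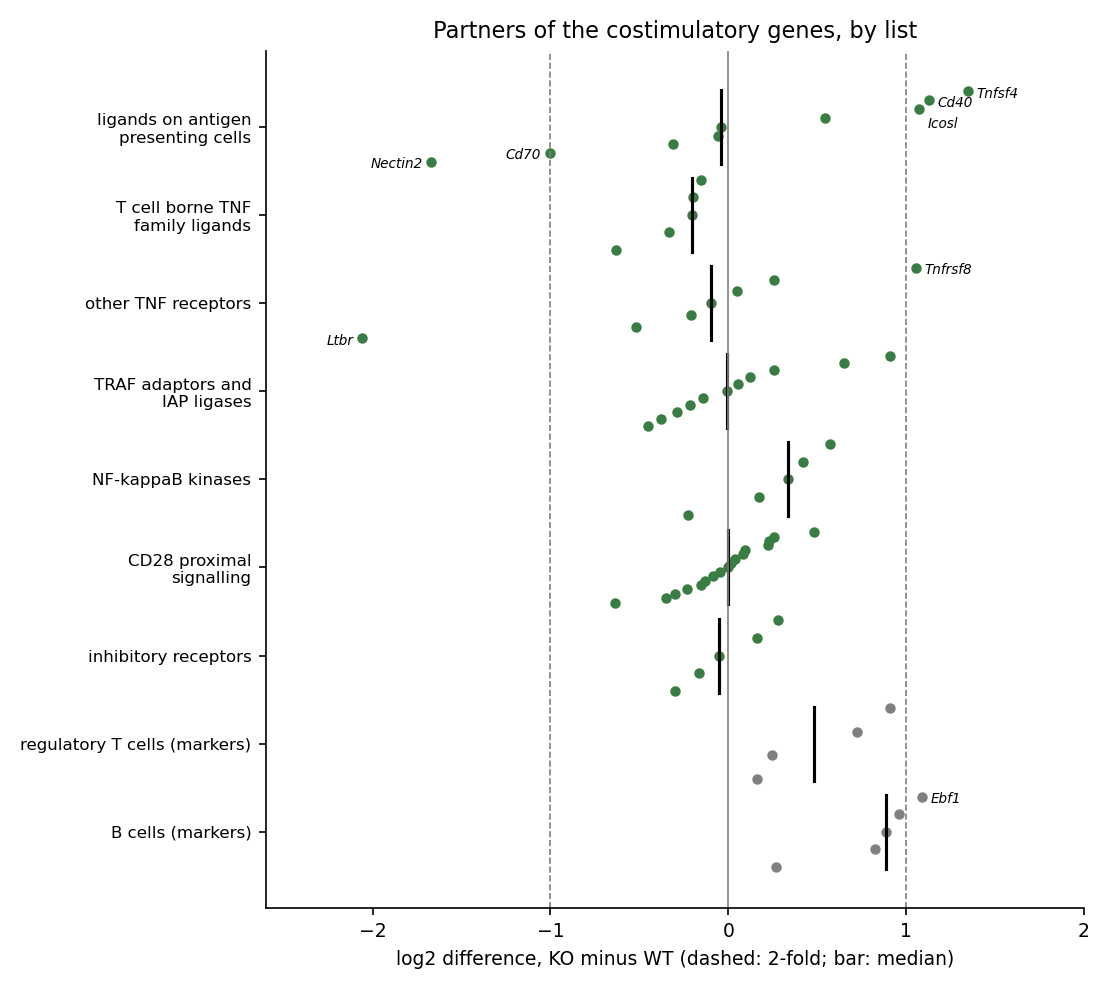
Log2 difference (library labelled KO minus WT) of each partner gene by list (green) and of regulatory T cell and B cell markers (grey), with the list median as a black bar and 2-fold as dashed lines. The named points are past 2-fold, and these are Tnfsf4, Cd40, Icosl, Nectin2, Cd70, Tnfrsf8 and Ltbr among the partners.

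Among the other TNF receptors, Tnfrsf8, which encodes the activation antigen CD30, was past 2-fold higher (7.81 and 8.87, 231 and 482 reads, difference 1.056). Ltbr, the lymphotoxin β receptor of stromal and myeloid cells, was past 2-fold lower (5.71 and 3.65, 53 and 12 reads, difference -2.059). The other 5 genes of that list lay between -0.516 (Tnfrsf1a) and 0.258 (Tnfrsf10b). The 5 TNF family ligands of T cells, Tnf, Lta, Ltb, Tnfsf8 and Tnfsf11, were lower in the library labelled KO without reaching 2-fold, with a median of -0.205. Of these, Ltb differed most as deposited (-0.632), and the smallest difference was that of Tnfsf8 at -0.153. After removal of the GC trend Ltb had -0.178, Lta came to 0.005, and Tnfsf11 differed most at -0.474. Tnfsf8 had -0.344 after that removal and 0.015 with equal totals.

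The 33 genes of the signalling lists all had log2 values of 8 or more in each library, where 1.2% of all genes differed 2-fold. None of the 33 did on the deposited scale, which is near that background, and Birc2 did with Actb and equal-total scaling. The 11 TRAF adaptors and IAP ligases had a median of -0.009, with Birc2, a ubiquitin ligase bound by TRAF2, highest at 0.908 and Traf1 lowest at -0.453. After removal of the GC trend Birc2 had 0.717, and Traf5 was lowest at -0.601. Birc3, a close relative of Birc2, was also higher (10.84 and 11.49, difference 0.654). Of the 5 kinases that lead to NF-κB, 4 were higher, with a median of 0.339 (0.229 after removal of the GC trend). They ran from -0.224 for Map3k14, the kinase NIK of the noncanonical branch, to 0.570 for Chuk. After that removal Map3k14 had 0.120 and Chuk 0.346. The 17 genes of CD28 proximal signalling had a median of -0.002, between -0.002 and 0.166 over the alternatives, and Lck, the kinase that starts T cell receptor signalling, differed by -0.002 on 94604 and 94632 reads. As deposited, Carmil2, a CD28-linked adaptor of actin, was lowest at -0.637 and Pik3ca highest at 0.481. After removal of the GC trend they had -0.183 and 0.257, and Lcp2 was lowest (-0.480) and Vav1 highest (0.356). The inhibitory receptors that share ligands with the family lay between -0.301 (Cd160) and 0.281 (Btla).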

How the data were processed

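Poly(A) RNA was sequenced by the authors as paired ends, mapped with TopHat (mm10 in the submitters' notes) and counted over unique and multiple alignments with edgeR. The annotation was not given in the sources used here. The deposited log2 values were taken to be a normalized count plus 1 on a log2 scale, a unit inferred from the values. Undone, 99.96% of 5551 low values (WT) and of 5490 (KO) fell within 0.1 of a whole read, with 1 read worth 0.970 and 0.969. These rebuilt reads gave the exact intervals, which hold counting error alone. With 1 library per genotype, no test was run.

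Lengths, GC content and positions came from GENCODE M21 (GRCm38), which held all 10 genes and 96.0% of symbols with a value of at least 1. Nectin2 and Carmil2 were found under older symbols. Alternatives were a pseudocount of 0.1 or none, median-ratio, quantile and Actb scaling, subtraction of the median in 20 GC bins, other lengths, other fold lines and, chosen after seeing the data, equal totals. Named from the lists were the genes past 2-fold with a log2 value of at least 5, the extremes of each pathway list, and markers at 0. Other list genes were named after their values were seen. One marker gene is not reported here. The members and lists were chosen with earlier results of these data known. Scripts ran on Python 3.11.15 with matplotlib 3.10.9, scipy 1.17.1, pandas 2.3.3 and numpy 2.4.6, and were tested on simulated data.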

Additional observations from a re-analysis of the deposited data

How the results depend on the processing

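The count of 0 of 10 genes past 2-fold stayed at 0 under each alternative. On the deposited scale it was also 0 at 1.5-fold and 3-fold, but Tnfrsf9 passed 1.5-fold after quantile normalization (0.623) and with equal totals (0.6). Tnfrsf9 and Cd40lg stayed above 0, and Tnfrsf4 and Tnfsf14 below 0, under each of the 7 alternatives. Small differences changed sign, and the 3 genes above and 7 below 0 became 6 and 4 with quantile and Actb scaling and 7 and 3 with equal totals. With quantile normalization Cd28 was 0.079, Cd27 0.008 and Tnfrsf18 0.088. Scaled to Actb, Cd28 was 0.091, Tnfrsf18 0.062 and Cd226 0.034. With the GC trend removed, Icos was -0.116 and Tnfrsf18 0.156. With equal totals, chosen after seeing the data, Cd28 was 0.143, Tnfrsf18 0.114, Tnfrsf1b 0.015 and Cd226 0.086. Actb scaling and equal totals also moved the median of all genes at log2 values of 5 and above, from -0.004 to 0.111 and 0.163, and the median of the 10 genes was below it (0.048 and 0.1). With quantile normalization the median of the 10 genes was above it (0.043 against 0.017). A log2 floor of 8 in both libraries left 41 genes 2-fold higher and 66 lower over all genes. That floor kept 8886 of 15541 genes, and the share past 2-fold was 1.2% among them against 16.5%. The place in the order by level changed for 6 of the 10 genes when coding length or no length was used. No paired analysis was possible because each genotype has 1 library. Depth limits Cd226 and Tnfsf14 most, and without replicates the spread between cultures stays unknown.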
